A study of Mus musculus with 8 samples.

Results

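The integrins and focal adhesion genes described here are 38 of the 42391 gene entries counted by RNA sequencing in mouse myoblasts after silencing of Septin9, a septin cytoskeleton protein that decorates actin fibers. The members were chosen by name as 11 integrin alpha chains, 5 integrin beta chains and 22 genes of the adhesion plaque, which is the protein layer that ties integrins to actin. The question was how the RNA levels of these genes differ between both kinds of myoblast and how they change when Septin9 is depleted. RNA came from 8 samples in 4 groups of 2 replicates each, and each replicate number marks 1 of 2 independent experiments.

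C2C12 is an established line of mouse myoblasts. C2C12 cells received either a non-targeting siRNA (control) or the Septin9 siRNA and were lysed 60 h after transfection, after 12 h in differentiation medium. Primary myoblasts were grown from hindlimb muscle of mice at 5 weeks of age, after preplating on collagen to remove fibroblastic cells. They received the same pair of siRNAs and were lysed 48 h after transfection, in proliferation medium. No sample carried a genetic deletion, all groups were labelled wild type or Septin 9 KD, and the knockdown rested on 1 siRNA sequence. Primary myoblasts alone were stated to be cultured on Matrigel, a laminin-rich matrix, and the methods name no coating for the plate used for RNA sequencing. Medium, differentiation state, time after transfection and possibly substrate thus differed together with the cell type.

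Integrins are membrane receptors made of 1 alpha and 1 beta chain, and the pairing sets which matrix protein is bound. Talins and kindlins bind the beta tail and switch the receptor on, vinculin, filamins, alpha-actinins and tensins tie it to actin, and paxillin, FAK and the ILK complex form the signalling layers. In skeletal muscle, the laminin receptor built from Itga7 and Itgb1 anchors fibers to their basement membrane, and myoblasts exchange chains as they migrate, align and fuse.

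Between 20898611 and 27223414 reads were counted on genes per sample. Septin9 was measured at 430 and 441 CPM (read counts scaled to sequencing depth) in the C2C12 controls and at 151 and 189 CPM in the Septin9-deficient C2C12 cells, a log2 fold change of −1.36 (SE 0.08, adjusted p = 5.11e-09). In primary myoblasts it stood at 365 and 459 CPM in the controls and at 199 and 157 CPM after Septin9 siRNA, a log2 fold change of −1.21 (SE 0.15, adjusted p = 0.000134). CPM in the knockdown comparisons are TMM-scaled within each cell type. Adjusted p-values are from the quasi-likelihood test of edgeR, adjusted by Benjamini-Hochberg over all genes tested, and a gene passed at an adjusted p under 0.05.

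The myoblast markers Myod1, Des and Cdh15 were detected in all 8 samples. Of 4 blood markers, Ptprc was at 0 in 7 samples and Adgre1 at 0.04 CPM or less. Cd68 was at 0.91 to 2.10 CPM in all 8 samples, and Itgam at 0.26 to 1.88 CPM in primary myoblasts. Differentiated muscle markers were also high in the primary myoblasts labelled as proliferating: their summed level over 10 genes, at one scale for all samples, was 4170 to 18558 CPM there and 106 to 263 CPM in C2C12 cells at 12 h of differentiation. The primary myoblasts of replicate 2 stood apart from those of replicate 1 in both siRNA groups. All 10 differentiated muscle markers were lower and all 7 fibroblast markers were higher in both replicate 2 samples than in both replicate 1 samples. The C2C12 experiments differed too, with 9 of 10 differentiated muscle and 5 of 6 myoblast markers higher in both replicate 2 samples, and Myog at 5.23 and 37.7 CPM in the controls of replicates 1 and 2. In bulk RNA, fewer cells of a type and less RNA per cell cannot be told apart.

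Promoter sequences are shown for Vcl, Tns1 and Actn1, because these 3 actin linkers passed together in C2C12 cells, as described below by their values. Each is the 300-base window from 250 bases before to 50 bases after the RefSeq transcript start on GRCm38.p6, written 5′ to 3′ on the strand of the gene. Vcl lies on the plus strand (chr14:20929148-20929447), Tns1 on the minus strand (chr1:74124499-74124798) and Actn1 on the minus strand (chr12:80260314-80260613). Capitals mark matches to the CArG box, the element bound by serum response factor, and to the MCAT core, the element bound by TEAD factors.

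Vcl: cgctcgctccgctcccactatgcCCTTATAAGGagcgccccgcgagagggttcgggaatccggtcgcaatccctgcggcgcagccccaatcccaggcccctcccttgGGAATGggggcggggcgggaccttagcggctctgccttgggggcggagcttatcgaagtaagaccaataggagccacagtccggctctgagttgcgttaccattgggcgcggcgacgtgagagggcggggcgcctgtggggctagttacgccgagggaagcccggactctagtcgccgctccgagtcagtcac
Tns1: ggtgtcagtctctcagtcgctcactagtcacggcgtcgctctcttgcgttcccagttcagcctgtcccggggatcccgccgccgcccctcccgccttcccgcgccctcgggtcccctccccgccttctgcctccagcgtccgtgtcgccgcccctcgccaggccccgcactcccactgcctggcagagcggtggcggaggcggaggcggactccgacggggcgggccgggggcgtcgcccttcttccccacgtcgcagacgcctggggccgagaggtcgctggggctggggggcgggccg
Actn1: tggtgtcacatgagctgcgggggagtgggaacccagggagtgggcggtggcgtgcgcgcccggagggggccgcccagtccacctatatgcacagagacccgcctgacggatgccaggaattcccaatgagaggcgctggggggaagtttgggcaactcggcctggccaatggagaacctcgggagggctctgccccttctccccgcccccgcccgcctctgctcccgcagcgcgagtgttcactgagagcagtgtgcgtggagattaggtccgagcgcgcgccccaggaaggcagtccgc

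The Vcl window held a CArG box 227 to 218 bases before the start and an MCAT core (CATTCC, on either strand) 143 to 138 bases before it, and the Tns1 and Actn1 windows held neither. RefSeq promoters were found for 28 of the 38 members, with 35 windows in all and none for Tgfb1i1. The CArG box was in 2 of these 35 windows (Vcl and Fermt2) and in 1.63% of 32851 windows of all genes. The MCAT core was in 6 member windows, of Vcl, Actn4, Flna, Flnc and Itgb1, and in 14.7% of all windows. The AP-1 site (TGANTCA, on either strand) was in 4 member windows, of Actn4, Itga3, Itga9 and Zyx, and in 7.81% of all windows. No motif overlapped another in the windows shown, and a match describes letters only.

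The integrin repertoire of the control cells was measured first, since it sets which receptors each cell type could build. Levels of different genes were compared as RPKM (reads scaled to exon length and depth, with all 8 samples on one TMM scale). Itgb1, the beta chain shared by most muscle integrins, was the most abundant chain in both cell types, at 240 and 256 RPKM in C2C12 controls and 255 and 312 RPKM in primary myoblast controls. These ranges overlapped, and the log2 difference of 0.21 (SE 0.16, adjusted p = 0.348) did not pass.

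Among alpha chains of C2C12 controls, Itga7 (51.7 ± 14.6 RPKM, SD, n = 2), Itga3 (38.3 ± 4.59) and Itga5 (37.3 ± 0.55) led, and the 2 values of each overlapped those of its neighbour in this order. Itga7 and Itga3 pair with Itgb1 to bind laminin, and Itga5 pairs with it to bind fibronectin. Itgav, a partner of several beta chains in vitronectin and fibronectin receptors, followed at 18.3 ± 0.40 RPKM without overlap, and Itga6 at 3.54 ± 1.26 RPKM. Below these came Itga11 at 1.97 ± 0.91 RPKM and Itga1 at 0.13 ± 0.03 RPKM, both collagen receptor chains, and Itga8, Itga4, Itga9 and Itga2 were all under 0.1 RPKM.

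In primary myoblast controls the order of alpha chains was Itga7 (86.1 ± 33.5 RPKM, SD, n = 2), Itga6 (48.6 ± 14.0), Itga5 (43.6 ± 37.4), Itga3 (37.0 ± 0.74) and Itgav (17.9 ± 5.94). Itga7 did not overlap Itga6, whereas Itga6 overlapped Itga5 and Itga5 overlapped Itga3. Itga5 was at 17.2 and 70.1 RPKM, on either side of the 37.7 and 36.9 RPKM of C2C12 controls, and its direction between the cell types turned when primary myoblast replicate 2 was left out. Itga4, whose ligands include fibronectin and Vcam1, followed at 1.95 ± 0.03 RPKM and Itga9, a chain that binds tenascin and osteopontin, at 0.63 ± 0.03 RPKM. The collagen receptor chains Itga2, Itga11 and Itga1 and the chain Itga8 had the lowest means, 0.38 RPKM or less.

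**Figure D1:**
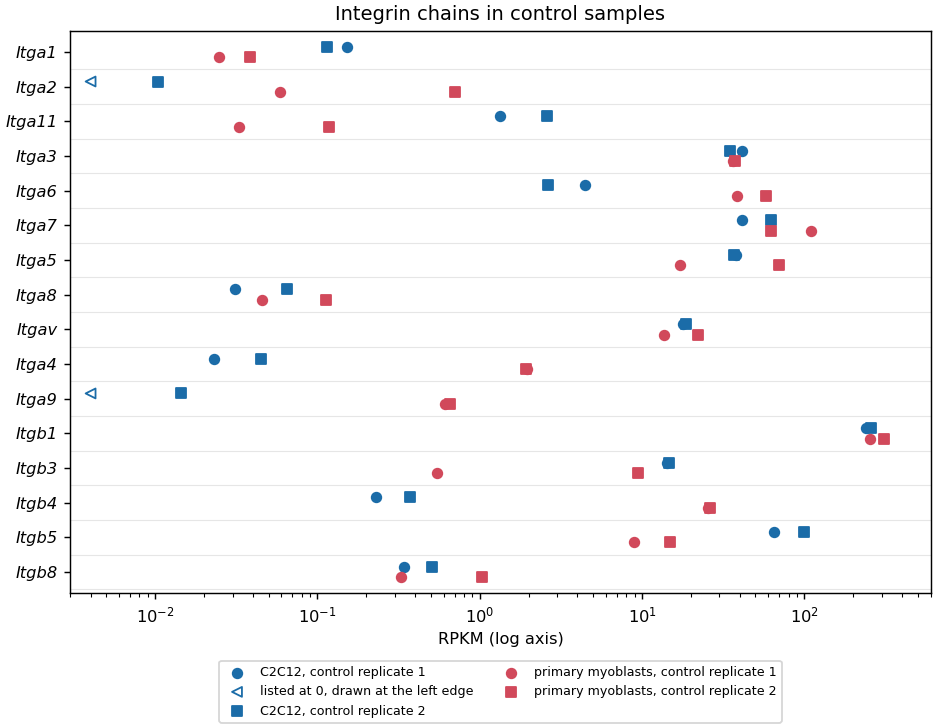
RPKM (log axis) of the 11 alpha and 5 beta integrin chains in the control samples, 1 point per sample, with circles for replicate 1, squares for replicate 2, blue for C2C12 cells and red for primary myoblasts. Itgb4, Itga6, Itga4 and Itga9 lie to the right in primary myoblasts, Itgb5, Itga11 and Itga1 to the left, and Itgb3 and Itga5 spread widely between the primary myoblast replicates.

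Of the 38 members, 14 passed between the control groups, 7 higher and 7 lower in primary myoblasts, where 18.3% of 17103 genes passed as higher and 16.2% as lower. Cell type, differentiation state, substrate, medium and time cannot be told apart here. Itgb4, which pairs with Itga6 in a laminin receptor, was at 0.23 and 0.37 RPKM in C2C12 controls and at 25.5 and 26.2 RPKM in primary myoblast controls. The groups were far apart, with a log2 difference of 6.43 (SE 0.29, adjusted p = 0.00216). Itga6 itself moved the same way, from 4.42 and 2.65 RPKM to 38.7 and 58.5 RPKM, a 13.9-fold difference (adjusted p = 0.00528).

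Itga4 was at 0.02 and 0.04 RPKM in C2C12 controls and at 1.97 and 1.93 RPKM in primary myoblast controls (log2 difference 5.82, SE 0.36, adjusted p = 0.00296). Itga9 was measured with 0 and 3 reads in C2C12 controls and 111 and 133 reads in primary myoblast controls, a ratio of 76.5 per sequenced read with a 95% counting interval of 25.9 to 374 (adjusted p = 0.0083). Both chains thus lay in separate ranges in the cell types. Itga2 had 0 and 2 reads in C2C12 controls and 10 and 134 reads in primary myoblast controls, a ratio of 67.7 with a counting interval of 18.4 to 565. It did not pass by edgeR (adjusted p = 0.051) but did by DESeq2 (adjusted p = 0.00114), and the replicates of primary myoblasts differed widely.

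The largest difference in the other direction was that of Itga11, the collagen receptor chain of mesenchymal cells, at 1.32 and 2.61 RPKM in C2C12 controls and 0.03 and 0.12 RPKM in primary myoblast controls (log2 difference −4.66, SE 0.68, adjusted p = 0.0112). Itgb5, a partner of Itgav, was at 65.3 and 99.4 RPKM against 8.88 and 14.8 RPKM (log2 difference −2.78, SE 0.34, adjusted p = 0.00815). Itga1 was at 0.15 and 0.12 RPKM against 0.02 and 0.04 RPKM (log2 difference −2.05, SE 0.41, adjusted p = 0.0218), so it was low in both cell types. For Itga11, Itgb5 and Itga1 the control groups did not overlap. Itgb4, Itga4 and Itga9 passed with any 1 control sample left out, whereas without replicate 2 of the C2C12 controls these 3 were the only members to pass.

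Of the plaque genes, Flnc (log2 difference 1.56), Pxn (1.19) and Vasp (1.13) were higher in primary myoblasts, and Lims2 (−1.57), Tns1 (−1.53), Zyx (−1.15) and Lims1 (−0.77) were lower. Flnc is the filamin of muscle Z-discs and Tns1 a tensin of fibrillar adhesions. Tns1 was at 21.8 and 20.6 RPKM in C2C12 controls and at 8.71 and 5.67 RPKM in primary myoblast controls. Lims2 was low in both, at 0.56 and 0.62 RPKM against 0.17 and 0.22 RPKM. The remaining 15 plaque genes did not pass by edgeR, among them the integrin activators Tln1, Tln2 and Fermt2. DESeq2 called Fermt2 (adjusted p = 0.0129) and Tln2 (adjusted p = 0.04) as lower and did not call Lims2 (adjusted p = 0.078).

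Per length, plaque transcripts were among the most abundant members. Flna, the actin-crosslinking filamin, led in C2C12 controls at 276 and 270 RPKM, and it was at 165 and 225 RPKM in primary myoblast controls. Arhgdia, a guanine nucleotide dissociation inhibitor of small GTPases, was at 264 and 230 RPKM in C2C12 controls and at 207 and 245 RPKM in primary myoblast controls. Zyx, a LIM protein of stretched actin fibers, was at 208 and 253 RPKM against 73.9 and 132 RPKM, and of these abundant genes only Zyx and Vasp passed between the cell types.

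Actn1, the alpha-actinin that bundles actin at adhesions, was at 101 and 91.8 RPKM in C2C12 controls and at 80.9 and 103 RPKM in primary myoblast controls, and its paralog Actn4 at 87.7 and 78.0 RPKM against 99.5 and 117 RPKM. Vasp, which extends actin filaments, was at 50.3 and 55.0 RPKM against 116 and 111 RPKM, and Ilk, the scaffold of the ILK complex, at 83.1 and 87.4 RPKM against 83.3 and 90.3 RPKM. Ilk shares 76.8% of its exon bases with Taf10 on the opposite strand and 12.9% with Rrp8. Whether counting used strand is not given in the sources used here, so part of its reads may be those of its neighbours.

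Summed by ligand, laminin-binding chains made up 60.4 to 67.0% of the alpha chain RPKM in the 4 C2C12 samples. In primary myoblasts they made up 84.6% and 85.1% in control and Septin9-deficient cells of replicate 1, and 62.3% and 63.0% in those of replicate 2. RGD-binding chains, which recognise the Arg-Gly-Asp motif of fibronectin and vitronectin, took most of the rest, with 14.2% and 13.6% in replicate 1 and 36.3% and 35.5% in replicate 2. Within each experiment the shares of primary myoblasts differed by less than 1 percentage point between siRNAs, and between experiments by more than 20.

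In C2C12 cells the laminin-binding share was higher after Septin9 siRNA in both pairs, at 65.4% against 60.4% in replicate 1 and 67.0% against 63.1% in replicate 2. The RGD-binding share was lower in both, at 33.8% against 38.5% and 31.8% against 35.1%. The siRNA groups did not overlap in either share, and with 2 samples per group these shares were given no test.

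**Figure D2:**
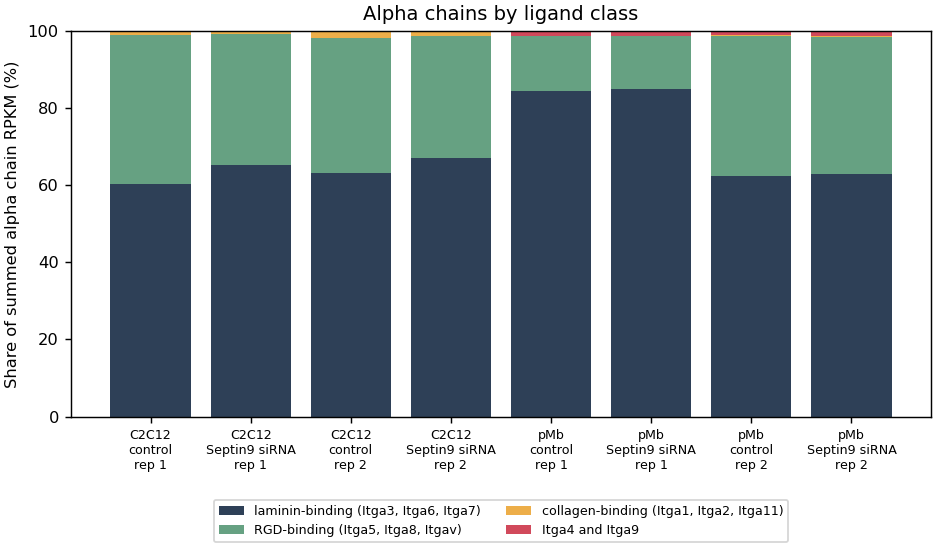
Percent of the summed RPKM of the 11 alpha chains (vertical axis) taken by each ligand class in each of the 8 samples, 1 bar per sample. Laminin-binding chains take 84.6 and 85.1% in primary myoblasts of replicate 1 and 60.4 to 67.0% in the other 6 samples.

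In C2C12 cells, Septin9 depletion was accompanied by lower RNA of the actin linkers Vcl, Tns1 and Actn1 and of the scaffold Tgfb1i1, and by higher RNA of the integrin chain Itga3. Of the 38 members, 35 were tested (Itga2, Itga8 and Itga9 were too low), and 4 passed as lower, where 4.12% of 15814 genes did, and 1 as higher, where 2.64% did (6.75% in either direction). At the study's additional limit for a DEG, a change of at least 1.5-fold, none of the 35 was called (background 1.57%), although 17 had an unadjusted p under 0.05 by edgeR (18.7% of genes) and 9 by DESeq2 (6.76% of genes), which likewise called no member at a change that large. The median log2 fold change was −0.09 over the members and −0.00 over all genes tested, and 24 of 35 members had a negative value against 50.2% of genes.

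Vcl, which encodes vinculin, the tension-bearing link between talin and actin, lies on the plus strand of chromosome 14 (20929398 to 21033676, GRCm38). It was at 567 and 607 CPM in C2C12 controls and at 379 and 446 CPM after Septin9 siRNA. Both Septin9-deficient samples were well below both controls, and Vcl fell by 0.51 on the log2 scale (SE 0.07, adjusted p = 0.000144), a fitted change of −29.9%. The replicate pairs gave −0.58 and −0.44. Vcl shares 25.5% of its exon bases with Ap3m1 on the opposite strand, which itself passed as lower (log2 fold change −0.25, SE 0.07, adjusted p = 0.0259).

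Tns1, a tensin that binds beta tails and actin, lies on the minus strand of chromosome 1 (73910231 to 74124449). It was at 363 and 333 CPM in controls and at 298 and 267 CPM after Septin9 siRNA, with no overlap of the groups. It fell by 0.30 on the log2 scale (SE 0.07, adjusted p = 0.00816, fitted change −18.9%). Actn1, on the minus strand of chromosome 12 (80167547 to 80260371), was at 584 and 513 CPM in controls and at 475 and 451 CPM after Septin9 siRNA. It fell by 0.24 (SE 0.07, adjusted p = 0.0474, fitted change −15.4%), close to the threshold, and it passed in 5 of the 12 settings tried.

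Tgfb1i1, which encodes Hic-5, the LIM protein related to paxillin, lies on the plus strand of chromosome 7 (128246812 to 128255699). It was at 86.6 and 106 CPM in C2C12 controls and at 70.3 and 85.1 CPM after Septin9 siRNA. The highest Septin9-deficient value was just under the lowest control, and the pairs gave −0.30 and −0.32. It fell by 0.31 on the log2 scale (SE 0.07, adjusted p = 0.00816, fitted change −19.3%).

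Itga3, on the minus strand of chromosome 11 (95044474 to 95076801), was at 247 and 202 CPM in C2C12 controls and at 309 and 248 CPM after Septin9 siRNA. The lower Septin9-deficient value and the higher control value were almost equal, whereas both pairs rose by a like amount, 0.32 and 0.29. The log2 fold change was 0.31 (SE 0.07, adjusted p = 0.0062, fitted change 23.9%).

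By role, 3 of 7 actin linkers passed as lower in C2C12 cells by edgeR, where 4.12% of genes did. At an unadjusted p under 0.05, 5 of the 7 were lower (10.1% of genes). DESeq2 also called 3 of the 7 as lower, Vcl, Tns1 and Flna, and gave 4 as lower before adjustment (4.2% of genes). Flna had a log2 fold change of −0.27 (adjusted p = 0.0681) and Flnc one of 0.21 (adjusted p = 0.0734), so these paralogs had opposite signs and neither passed by edgeR. The 3 integrin activators and the 4 ILK complex genes all had negative values, from −0.16 to −0.13 and from −0.87 to −0.09, with none passing by edgeR or DESeq2. At an unadjusted p under 0.05, edgeR gave 2 activators and 2 ILK complex genes as lower (10.1% of genes), and DESeq2 gave 1 of each (4.2% of genes). No beta chain passed by either tool or had an unadjusted p under 0.05, and their values ran from −0.05 to 0.49. The same held for Vasp and Zyx (−0.06 and −0.09). Of the scaffolds and kinases, Tgfb1i1 was the only one of 6 to pass. Ptk2, which encodes FAK, had a value of −0.15 (adjusted p = 0.213), Src one of 0.02 and Pxn one of 0.14. Of the alpha chains Itga3 alone of 8 passed, and Itga1, with only 29 to 62 reads per C2C12 sample, had the value of largest size among those tested, −0.80 (SE 0.28, adjusted p = 0.0962).

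Both Septin9-deficient C2C12 samples lay below both controls in 12 of the 35 members (12.7% of genes) and above both in 4 (13.1%). In both pairs, 20 members were lower (31.4% of genes) and 8 higher (31% of genes). Markers of differentiated muscle moved beside these changes, with 6 of 10 passing as higher (2.64% of genes), and so did 4 of 6 myoblast markers (Myod1, Des, Chrna1 and Cdh15). Acta1, of the differentiated muscle list, was lower in both pairs, at 7.34 and 17.7 CPM in controls against 4.91 and 14.6 CPM. These Acta1 values are on one scale for all 8 samples. DESeq2 called 2 of the 10 and 3 of the 6 as higher. The fit without the replicate block called none of them, and no gene of 15814. The part of differentiation state in the members' changes was not tested.

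The C2C12 calls rested on the experiment being a term in the fit, since without the replicate block no member and no gene of 15814 passed. Septin9 itself did not pass there, so that fit cannot tell the members' calls from those of other genes. Vcl alone of the members passed in the joint fit of all 8 samples. Pairs were left out only from this joint fit, so it cannot show whether the other calls rested on both pairs. With either pair left out, each called member kept its direction, with Vcl at −0.46 without replicate 1 and −0.56 without replicate 2. That was fixed in advance, since both pairs of each called member had the same sign. In DESeq2 with the block, Vcl, Tns1 and Itga3 passed, Tgfb1i1 (adjusted p = 0.136) and Actn1 (adjusted p = 0.103) did not, and Flna did (adjusted p = 0.0143).

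**Figure D3:**
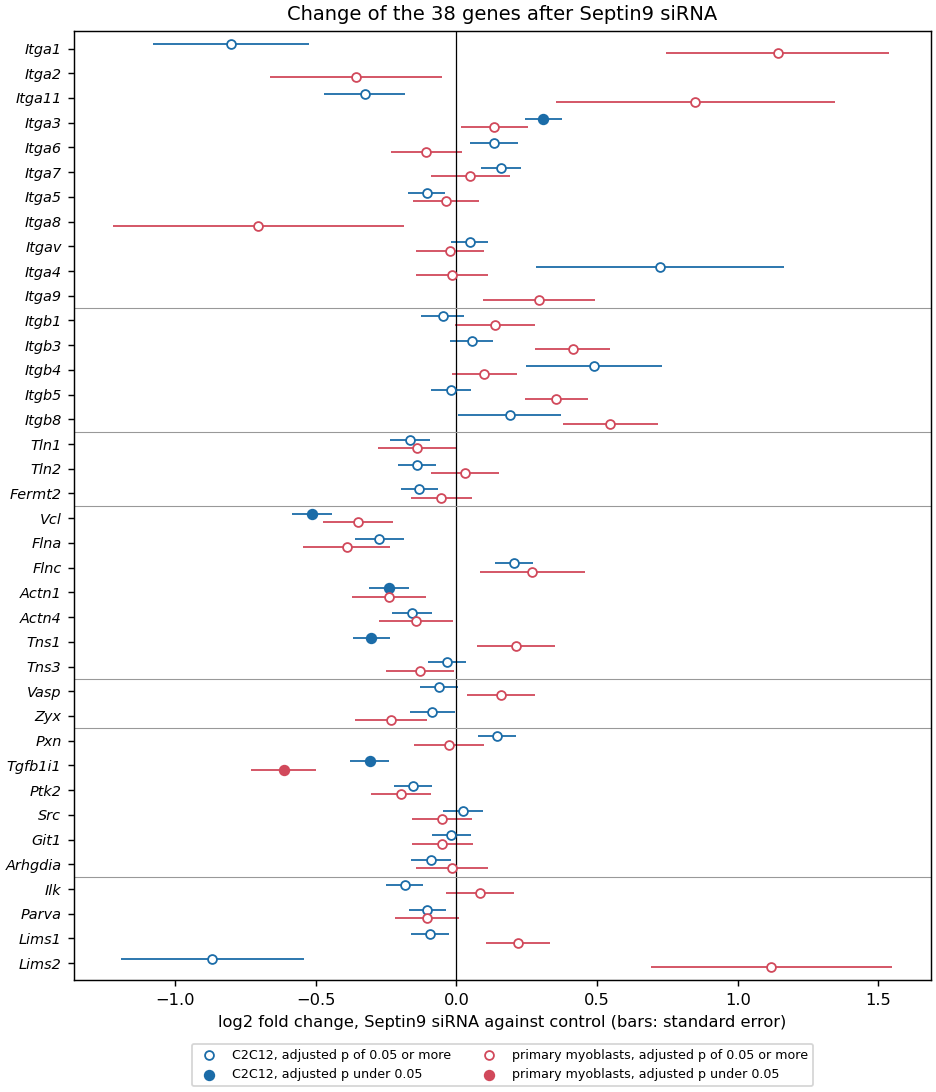
Log2 fold change after Septin9 siRNA (horizontal axis) of the members grouped by role, with bars for the standard error, blue for C2C12 cells, red for primary myoblasts and filled points for an adjusted p under 0.05. Filled points are Itga3, Vcl, Actn1, Tns1 and Tgfb1i1 in C2C12 cells and Tgfb1i1 in primary myoblasts, and the widest bars belong to low transcripts such as Itga1, Itga8 and Lims2.

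In primary myoblasts, 1 of 38 members passed as lower, Tgfb1i1, where 1.04% of 17117 genes did, and none passed as higher, where 3.95% did (4.99% in either direction). At an unadjusted p under 0.05, edgeR gave 5 members as higher and 3 as lower (10.6% and 6.15% of genes), and DESeq2 gave 1 and 3 (4.84% and 1.8% of genes) with none passing. The median log2 fold change was −0.02 over the members and 0.01 over all genes tested, and the pairs disagreed, with member medians of −0.12 in replicate 1 and 0.12 in replicate 2. Differentiated muscle markers were higher here too, with 9 of 10 passing (3.95% of genes), whereas the myoblast markers Pax7 and Myf5 passed as lower and Des as higher. Acta1 fell in replicate 1, from 3276 to 2482 CPM, and rose in replicate 2, from 906 to 1079 CPM, on the scale of all 8 samples. DESeq2 called 8 of the 10 as higher and, of 6 myoblast markers, 1 as higher and 1 as lower. The fit without the replicate block called none of these markers, and no gene of 17117.

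Tgfb1i1 was at 26.0 and 65.0 CPM in primary myoblast controls and at 15.6 and 45.7 CPM after Septin9 siRNA. The groups overlapped because replicate 2 was higher in both, but the Septin9-deficient cells were lower within each pair, by −0.73 and −0.51 on the log2 scale. It fell by 0.61 (SE 0.12, adjusted p = 0.00421, fitted change −34.6%) and was also the only member past the 1.5-fold limit for a DEG, where 3.17% of genes were. DESeq2 did not call it (adjusted p = 0.0549), and neither did the fit without the replicate block, which called no gene at all.

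Vcl was the only member with both Septin9-deficient primary myoblast samples below both controls (background 14.8%), at 333 and 299 CPM against 455 and 354 CPM. Its log2 fold change was −0.35 (SE 0.13, adjusted p = 0.134), and both pairs were negative, at −0.45 and −0.24. Actn1 was at 444 and 547 CPM in controls and at 339 and 514 CPM after Septin9 siRNA, a value of −0.24 (SE 0.13, adjusted p = 0.39). Tns1 was at 138 and 86.9 CPM in controls and at 125 and 129 CPM after Septin9 siRNA, so that its pairs had opposite signs (log2 fold change 0.21, SE 0.14, adjusted p = 0.492). Itga3 was at 207 and 205 CPM in controls and at 208 and 246 CPM after Septin9 siRNA (log2 fold change 0.13, SE 0.12, adjusted p = 0.65).

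All 5 beta chains had positive values in primary myoblasts, from 0.10 to 0.55, and none passed by edgeR or DESeq2. Itgb8, which pairs with Itgav to activate latent TGF-beta, had a value of 0.55 (SE 0.17, adjusted p = 0.0743), Itgb5 one of 0.36 (adjusted p = 0.0804) and Itgb3 one of 0.41 (adjusted p = 0.0874). These 3 were under 0.05 before adjustment by edgeR (10.6% of genes as higher), and 1 beta chain was by DESeq2 (4.84% of genes). The 6 scaffolds and kinases all had negative values, from −0.61 to −0.01. Of the alpha chains and ILK complex genes none passed by either tool, and edgeR gave 1 of each as higher at an unadjusted p under 0.05, Itga1 and Lims2, which DESeq2 did not. No activator passed or had an unadjusted p under 0.05 by either tool, and the same held for Vasp and Zyx. Both Septin9-deficient samples were above both controls in 6 members, Itga1, Itga3, Itga9, Lims1, Lims2 and Vasp (background 13.4%). In both pairs, 14 members were lower (29.2% of genes) and 11 higher (32.6% of genes).

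**Figure D4:**
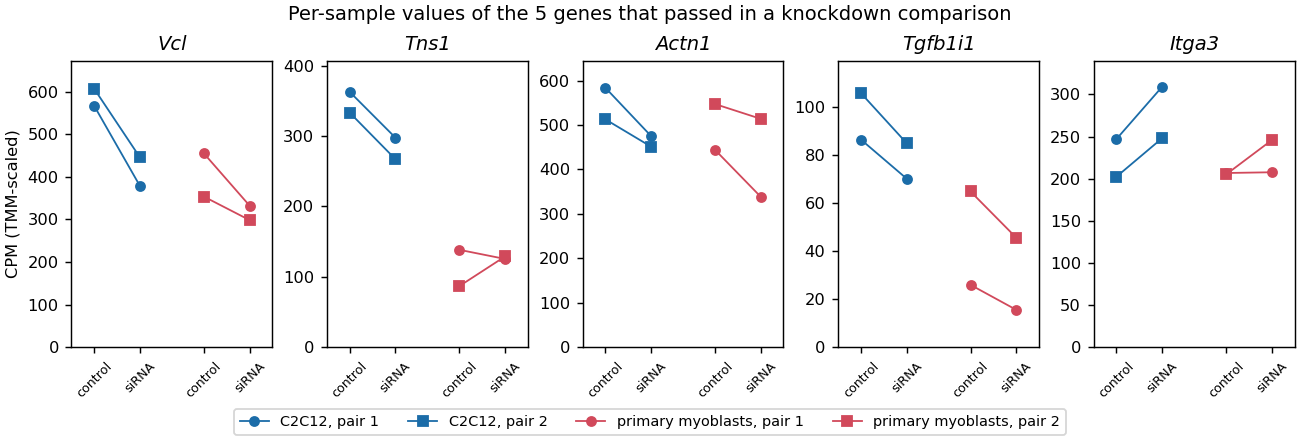
CPM (vertical axis, from 0, TMM-scaled within each cell type) of Vcl, Tns1, Actn1, Tgfb1i1 and Itga3 in each sample, with a line joining the control and the Septin9-deficient sample of each replicate pair. Both C2C12 pairs slope down for the first 4 genes and up for Itga3, and in primary myoblasts both pairs slope down for Vcl, Actn1 and Tgfb1i1 and the Tns1 lines run in opposite directions.

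Whether the change after Septin9 depletion differed between the cell types was tested by the interaction term in a fit of all 8 samples. No member passed by edgeR, and no gene of 17918 did (background 0%), while 8 members had an unadjusted p under 0.05 against 8.2% of genes. DESeq2 called no member either, and 21 genes in all after adjustment. By DESeq2, 4 members had an unadjusted p under 0.05 against 2.85% of genes. The differences, given as primary myoblasts minus C2C12 cells, were 0.50 for Tns1 (SE 0.19, adjusted p = 0.508), −0.31 for Tgfb1i1 (SE 0.12, adjusted p = 0.533), 0.15 for Vcl (SE 0.13, adjusted p = 0.813), −0.01 for Actn1 (SE 0.14, adjusted p = 1) and −0.18 for Itga3 (SE 0.13, adjusted p = 0.753). The lowest adjusted p over the members was 0.302, for Itga1.

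The experiments were also compared with each other. Between replicates 2 and 1 of primary myoblasts, 17 of 38 members passed, 15 higher and 2 lower in replicate 2, where 24.5% of genes passed in either direction. In C2C12 cells 14 of 35 passed, 10 higher and 4 lower, where 35.7% of genes did. The difference between experiments was larger in size than that between siRNAs for 27 of 38 members in primary myoblasts (64% of genes) and for 18 of 35 in C2C12 cells (68.8% of genes).

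Itgb3, the beta chain of the vitronectin receptor, was at 3.21 CPM in the control and 3.73 CPM in the Septin9-deficient primary myoblasts of replicate 1, and at 53.7 and 75.7 CPM in those of replicate 2. The log2 difference between experiments was 4.21, or 18.5-fold (adjusted p = 2.21e-13). Itga5, the fibronectin receptor chain, was at 84.0 and 77.3 CPM in replicate 1 and at 331 and 341 CPM in replicate 2, 4.17-fold higher (adjusted p = 4.3e-10). In each case the siRNA made little difference beside that between experiments.

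Itga2 was 11.1-fold higher in replicate 2 (adjusted p = 3.73e-07), on 10 and 8 reads in replicate 1 and 134 and 79 in replicate 2. Itgb8 was 3.19-fold higher (adjusted p = 7.19e-07), from 3.59 and 4.97 CPM to 10.9 and 16.6 CPM, and Tgfb1i1 was 2.7-fold higher (adjusted p = 4.58e-08). Itga7, the laminin receptor chain of differentiated muscle, ran the other way, from 882 and 808 CPM in replicate 1 to 483 and 565 CPM in replicate 2 (log2 difference −0.69, adjusted p = 0.00108). Flnc was the other member that was lower in replicate 2 (−0.54, adjusted p = 0.0426).

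Markers of other cell types moved with these values. On the scale common to all samples, the 7 fibroblast markers summed to 345 and 317 CPM in replicate 1 and to 616 and 652 CPM in replicate 2 of primary myoblasts. Within that list, Pdgfra was at 1.01 and 0.88 CPM against 32.2 and 32.2 CPM, and Dcn at 0.25 and 0.31 CPM against 13.5 and 16.1 CPM, whereas Lum and Dpt were under 0.5 CPM in all 4 samples. After Septin9 siRNA, Thy1 alone of the 5 fibroblast markers tested in primary myoblasts passed, as higher (0.80). The 4 smooth muscle and pericyte markers summed to 32.7 and 31.1 CPM against 138 and 157 CPM, with Pdgfrb at 3.24 and 2.41 CPM against 43.8 and 65.3 CPM and Myh11 under 0.4 CPM in all. The 10 differentiated muscle markers summed to 14442 and 18558 CPM against 4170 and 9545 CPM. The endothelial markers summed to under 5 CPM and the Schwann cell markers to under 0.5 CPM in all 8 samples, and the blood markers to 3.7 CPM or less. The part of these differences in the integrin values was not tested.

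**Figure D5:**
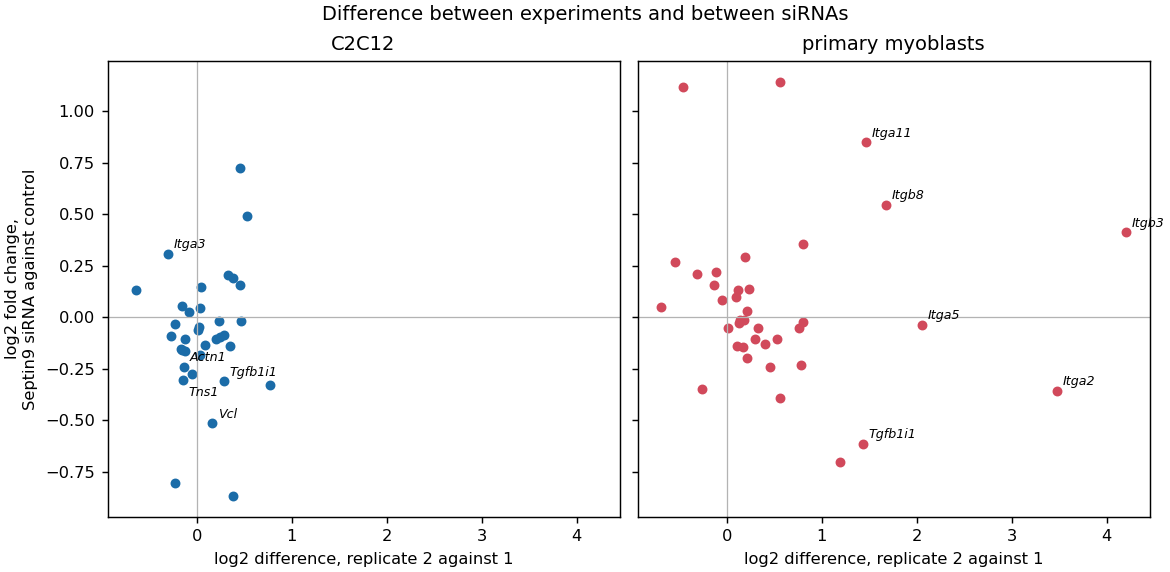
Log2 fold change after Septin9 siRNA (vertical axis) against the log2 difference between replicate 2 and replicate 1 (horizontal axis), 1 point per member, C2C12 cells on the left and primary myoblasts on the right. Itgb3 (4.21), Itga2 (3.48) and Itga5 (2.06) lie far to the right in primary myoblasts, and all C2C12 points lie within 1 log2 unit of 0 on the horizontal axis.

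Paralogs of the plaque stood in different proportions in the cell types. The ratio of Flna to Flnc RPKM was 10.7 and 8.06 in C2C12 controls and 7.5 and 5.92 in Septin9-deficient C2C12 cells, so that it was lower after Septin9 siRNA in both pairs. In primary myoblasts it was 1.44 and 3.94 in controls and 1.16 and 1.95 after Septin9 siRNA, again lower in both pairs. The ratio of Pxn to Tgfb1i1 was 0.77 and 0.66 in C2C12 controls against 1.07 and 0.89 after Septin9 siRNA, and 5.71 and 2.2 in primary myoblast controls against 8.21 and 3.5. It was higher after Septin9 siRNA in all 4 pairs. These 2 ratios were chosen after their values were seen and were given no test. The ratio of Actn1 to Actn4, likewise untested, was 1.16 and 1.18 in C2C12 controls and 1.09 and 1.11 after Septin9 siRNA, so it too was lower in both pairs. In primary myoblasts it ran from 0.68 to 0.92, and its pairs moved in opposite directions.

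Other genes of the adhesion pathway were counted from lists of non-members. Of 49 further plaque genes, 45 were tested in C2C12 cells, with 11 passing as lower and 1 as higher (4.12% and 2.64% of all genes), and 46 in primary myoblasts, with 1 lower and 4 higher (1.04% and 3.95%). DESeq2 gave 5 lower and 1 higher in C2C12 cells and 1 lower and 2 higher in primary myoblasts. Without the replicate block no gene passed in either cell type, inside or outside these lists. Crkl, an adaptor that binds phosphorylated paxillin and Cas, fell in both, by 0.87 on the log2 scale in C2C12 cells (SE 0.09, adjusted p = 6.45e-06) and by 0.90 in primary myoblasts (SE 0.11, adjusted p = 0.000128). It was at 69.9 and 65.1 CPM in C2C12 controls against 32.1 and 42.0 CPM, and at 80.3 and 67.9 CPM in primary myoblast controls against 42.4 and 37.0 CPM. The Septin9-deficient values were below all controls of the same cell type. In C2C12 cells the caveolar protein Cav1 (−0.48) and the LIM protein Csrp1 (−0.47) also fell, and the sarcomeric alpha-actinin Actn3 rose (0.66). In primary myoblasts Itgb1bp2, a muscle protein that binds the Itgb1 tail (1.15), and the sarcomeric alpha-actinins Actn2 (1.00) and Actn3 (0.77) rose.

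Of 29 integrin ligands, 25 were tested in C2C12 cells, with 4 passing as lower and 1 as higher by edgeR and by DESeq2 (4.12% and 2.64% of all genes by edgeR) and none without the replicate block. Thbs1, a matricellular protein, fell from 4236 and 3415 CPM to 2775 and 2388 CPM (log2 fold change −0.56, adjusted p = 0.000712), and Ccn1 (−0.39) and Fbn1 (−0.34) fell too. Spp1, which encodes osteopontin, rose from 2525 and 2347 CPM to 3837 and 3856 CPM (log2 fold change 0.66, adjusted p = 0.000139). In primary myoblasts 27 were tested, and Tnc (−0.63) and Vcam1 (−0.44), both ligands of the Itga4 and Itga9 class, passed as lower, where DESeq2 called 1 and the fit without the block none.

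Of 11 further integrin chains, none passed in either cell type, by edgeR or DESeq2. At an unadjusted p under 0.05, edgeR gave as higher 1 of 5 chains tested in C2C12 cells (8.65% of genes) and 4 of 8 in primary myoblasts (10.6% of genes). DESeq2 gave none and 1 (2.56% and 4.84% of genes).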

How the data were processed

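Poly(A) RNA of 8 samples was sequenced. According to the methods and the submitters' processing notes, paired-end reads were mapped with STAR 2.7.2 to GRCm38.p6 and assigned to genes with featureCounts 2.0.1, and the raw counts deposited by the authors were used here without normalization. The authors also deposited, per cell type, a normalized signal, for which the batch effect between experiments was modelled with ComBat-Seq and the result divided by DESeq2 size factors. Whole reads were recovered from 100% of its values (tolerance 0.02) and used as an alternative only. The strand setting of counting is not given in the sources used here. Left out were 16 broken lines, and 2379 entries named as further copies of genes were kept.

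Members and lists were chosen with earlier results of these data known. Samples were grouped by their labels. Each cell type was fitted alone in R 4.3.3 with edgeR 4.0.16 (filterByExpr, TMM, quasi-likelihood test, replicate number as a block, Benjamini-Hochberg adjustment), the 4 controls were fitted without a block, and the interaction was fitted over all 8 samples. Replicate numbers in the labels and the independent experiments of the methods give the pairing, and deviations of same-numbered samples from their group means correlated at 0.678 in C2C12 cells and 0.82 in primary myoblasts. In the knockdown comparisons the block takes up the difference between experiments. Their p-values measure how far the 2 pairs of a cell type disagree in their change, with the spread moderated over all genes tested. P-values between controls measure the spread between 2 samples per cell type, moderated likewise. Log2 ratios of pairs used a prior count of 2. RPKM used exon lengths of GENCODE M21. Exact binomial intervals (95%) cover counting error only. Depth ran from 20898611 to 27223414 reads.

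Values per sample are given for members that passed in a knockdown comparison, the 6 most abundant per length in the controls of each cell type, and the 5 largest differences in each direction between controls. Other members with values per sample were chosen after their values were seen. At most 4 genes per further list and comparison, those with the smallest p, were named. Some results of the further lists are not reported here.

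On simulated data with 200 changed genes, the C2C12 comparison recovered 99.5% of them among 15814 genes and that of primary myoblasts 99.5% among 17117. The comparison of controls recovered 100% among 17103 and the interaction 95% among 17918. False calls made up 2.93%, 2.93%, 1.48% and 2.06% of the genes called, in the same order. Recovery by size of change was not tested, so these rates do not describe changes of the members' size. Alternatives were RLE size factors, library size alone, no filter, a minimum of 10 counts per sample, the fit without the replicate block, DESeq2 1.42.0 on the raw or on the batch-corrected values, a joint fit of all 8 samples, merged further copies, and each replicate left out. Intervals, tables and figures were made in Python 3.11.15 with matplotlib 3.10.9, scipy 1.17.1, pandas 2.3.3 and numpy 2.4.6.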

Additional observations from a re-analysis of the deposited data

Results flagged for a closer look

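For 5 members, both C2C12 pairs moved one way and both primary myoblast pairs the other way, and none of these differences passed the interaction test. The share of all genes doing so was not counted, so the 5 cannot be called more than the background. Of all genes, 31.4% were lower and 31% higher in both C2C12 pairs. In both primary myoblast pairs 29.2% were lower and 32.6% higher. Itga1 had pair ratios of −1.04 and −0.51 on the log2 scale in C2C12 cells and of 1.04 and 1.05 in primary myoblasts, and the difference between the cell types was 1.93 (adjusted p = 0.302 by edgeR). Its counts were low, with 29 to 62 reads per C2C12 sample and 11 to 32 per primary myoblast sample. Lims2 had −1.20 and −0.54 against 1.66 and 0.35, a difference of 1.99 (adjusted p = 0.405), and Itga11 had −0.13 and −0.47 against 0.91 and 0.64, a difference of 1.14 (adjusted p = 0.514). Lims1 had −0.07 and −0.11 against 0.17 and 0.27, a difference of 0.30 (adjusted p = 0.533). Itgb1 had −0.02 and −0.07 against 0.14 and 0.13, a difference of 0.18 (adjusted p = 0.797).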

How the results depend on the processing

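With 2 experiments per cell type, the member counts moved with most choices. In C2C12 cells, where 1 member passed as higher and 4 as lower, library size alone gave 2 as higher. The fit of all 8 samples gave 0 as higher and 1 as lower (Vcl), and DESeq2 on the authors' batch-corrected values gave 2 and 7. Without the replicate block both counts were 0, with 2 members at an unadjusted p under 0.05 and no gene of 15814 passing. With either pair left out of the joint fit, each member called in the main fit kept its direction. That was fixed in advance, since both pairs of each had the same sign. In primary myoblasts, where 0 passed as higher and 1 as lower, no filter gave 1 and 2, DESeq2 gave 0 as lower, and DESeq2 on the batch-corrected values gave 3 as lower. Without the replicate block 0 passed as lower, with 0 members at an unadjusted p under 0.05, and leaving out 1 pair gave 1 to 5 as higher and 1 to 5 as lower. The 5 as higher without replicate 1 were Flnc, Itgb3, Itgb5, Itgb8 and Tns1. Those as lower without replicate 2 were Actn1, Flna, Tgfb1i1, Tln1 and Vcl.

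Between controls, 7 passed in each direction, and leaving out 1 sample gave 3 to 9 as higher and 0 to 9 as lower. The counts were 4 and 1 without C2C12 replicate 1, 3 and 0 without C2C12 replicate 2, 9 and 3 without primary myoblast replicate 1 and 8 and 9 without primary myoblast replicate 2. Itga5, at 0.23, reversed without replicate 2 of the primary myoblast controls, to −1.09 (adjusted p = 0.0224), and was 0.88 without replicate 1. The interaction, with 0 members passing, gave 3 with no filter (Itga1, Lims2 and Tns1) and 0 to 6 with a pair left out, the 6 without replicate 1 of primary myoblasts. Pairs were always left out from joint fits over both cell types, where the lone pair is assumed to vary like the others.

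Over 12 settings each, Vcl in C2C12 cells passed in 9 (−0.56 to −0.46), Tns1 in 8 (−0.33 to −0.26), Itga3 in 8 (0.28 to 0.35), Tgfb1i1 in 7 (−0.33 to −0.28) and Actn1 in 5 (−0.27 to −0.20), and Tgfb1i1 in primary myoblasts passed in 10 (−0.72 to −0.53). Itga1, Itga2, Itga8, Itga9, Itga11 and Lims2 were limited by depth.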
